A study of Mus musculus with 10 samples.

Results

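The comparison described here is that of DCI against no DCI on day 17 of the differentiation of mouse embryonic stem cells. Its differences come from the arrays labelled day 17 alone, which are 4 of the 10 arrays of the study: 2 with DCI and 2 without. The cells were of the C57BL/6 strain, and the 4 cultures had received no added agent (control), KGF, DCI, or KGF together with DCI. KGF is keratinocyte growth factor, also called FGF7, a ligand that acts on epithelial cells. The labels do not spell out DCI. It is taken here as the dexamethasone and raised cAMP of the series title, and in cell culture the name usually stands for dexamethasone, a cell-permeant cAMP analogue and isobutylmethylxanthine, an inhibitor of phosphodiesterases. Each condition is 1 array, and the labels name no separate cultures, so a p-value does not measure the spread between cultures. The arrays form 2 matched pairs, DCI minus control (the pair without KGF) and KGF with DCI minus KGF (the pair with KGF). With no repeat of a condition, the spread behind a p-value is the gap between such pairs, together with a prior drawn from all genes. That gap is taken at day 17 and at the later day of the fit described below. A DCI difference that depends on KGF is therefore counted as spread and cannot be told from array noise.

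Dexamethasone binds the glucocorticoid receptor, a transcription factor that enters the nucleus with its ligand and acts at glucocorticoid response elements. cAMP activates protein kinase A, which phosphorylates CREB, a factor bound to cAMP response elements, and phosphodiesterases end the signal by breaking cAMP down. In fetal lung the 2 signals are known for promoting surfactant production, in liver for inducing enzymes of gluconeogenesis, and in leukocytes for restraining inflammation.

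Expression was measured as deposited log2 values, so that a difference of 1 is 2-fold, and 18193 genes were measured, each by the probe set with its highest mean. In what follows, levels are log2 values in the order without KGF and with KGF. A difference is the mean of the 2 matched day 17 pairs, with its standard error (SE) from a limma fit over the 8 arrays of days 17 and 24 (n = 2 pairs). A gene passed when its adjusted p (Benjamini-Hochberg over all genes) was under 0.05, and "rose" and "fell" are used only of genes that passed. The median SE was 0.122 and the median half-width of a 95% interval 0.272. The 4 arrays were alike in the quality values they carry. Their correlations with each other lay between 0.9854 and 0.9957, the 3′ minus 5′ signal of Gapdh between 0.031 and 0.115 and that of Actb between 0.476 and 0.620. The cells are labelled as embryonic stem cells, and of 13 measured pluripotency genes none but Klf4, which is also used in epithelia, passed. Pou5f1 read 5.34 and 6.0 without DCI and 5.34 and 6.24 with it, and Nanog read 5.70 and 6.55 without DCI and 5.54 and 6.85 with it, so that the arrays with KGF were the higher in each pair of conditions and the groups with and without DCI overlapped.

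DCI changed the expression of 2148 genes at day 17, 11.8% of those tested. Of these, 1277 rose (7.02% of all genes) and 871 fell (4.79%). All 2148 moved the same way in both pairs, which the fit fixes in advance. It counts a gap between the pairs as spread, so a gene with pairs of opposite sign could not pass. Counts of list members that rose or fell, given below, are to be read against these shares. Without adjustment of p, 4336 genes were under 0.05. At least 2-fold differences in the same direction in both pairs, a description without a test, were seen for 316 genes (1.74%), 177 higher and 139 lower. With 2 arrays against 2, the arrays with DCI lay all above or all below those without for 9122 genes (50.1%), so a lack of overlap alone says little about a gene. Over all genes the 2 pairs correlated at 0.712, and at 0.781 over the 12699 genes that reached the median of the table (log2 5.27) on a day 17 array. These correlations describe genes within 4 arrays, and genes are not independent replicates. The counts depend on the estimate of the spread. They were 661 higher and 451 lower without a mean trend in the variance, and 741 to 813 higher and 476 to 502 lower with 1 of the 4 arrays left out.

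**Figure D1:**
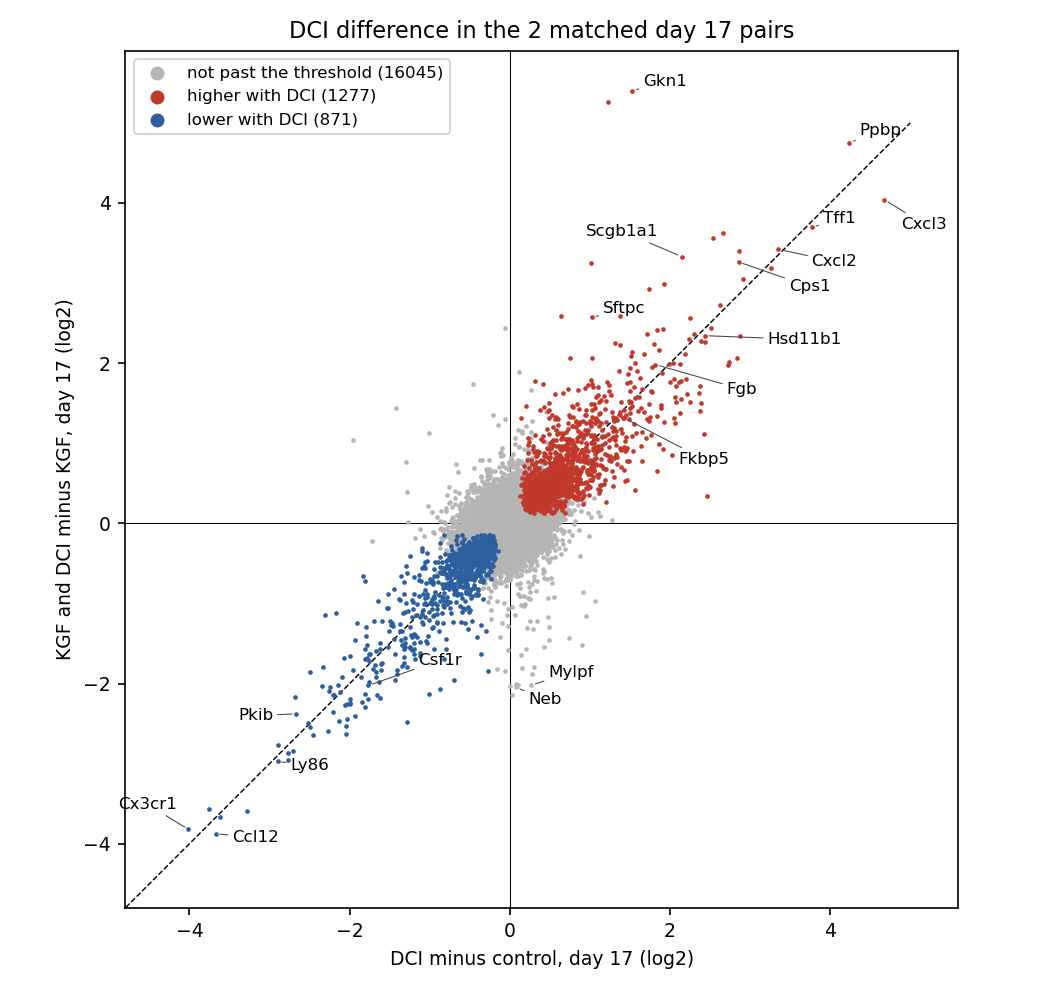
Each point is 1 of 18193 genes, with the log2 difference DCI minus control on the horizontal axis and KGF with DCI minus KGF on the vertical axis. Red points are the 1277 genes that rose and blue points the 871 that fell. The dashed line marks equal differences, near which Ppbp, Cxcl3, Tff1, Cx3cr1 and Ccl12 lie, while Gkn1 lies above it and the muscle genes Mylpf and Neb lie below it.

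The 12 largest rises joined chemokines with genes of gut, airway and liver epithelium. They were the chemokines Ppbp (4.50 on the log2 scale), Cxcl3 (4.36) and Cxcl2 (3.39), the gastric peptides Tff1 (3.74), Gkn1 (3.47) and Gkn2 (3.24), and Mrap (3.23), a partner of the ACTH receptor. The others were the gut crypt glycoprotein Olfm4 (3.15), the intestinal pentraxin Mptx1 (3.13), Cps1 (3.06), the entry enzyme of the urea cycle, the airway mucin Muc5b (3.05) and the goblet cell peptide Spink4 (2.98). The 12 largest falls were nearly all genes of macrophages and other leukocytes: Cx3cr1 (-3.92), Ccl12 (-3.77), Gpr34 (-3.66), Fcrls (-3.65), Hpgds (-3.44), Ly86 (-2.94), Cd48 (-2.87), Ccl3 (-2.83), Trem2 (-2.82), Pld4 (-2.77), Plek (-2.55) and Aif1 (-2.52). Among these falls, other probe sets gave -1.43 for Cx3cr1, -0.04 for Trem2 and -2.70 to -0.81 for Plek. The calls of 4 of the 12 rises were lost under an alternative setting. Across the alternatives the adjusted p ran from 1e-08 to 0.0785 for Ppbp, 4.12e-07 to 0.218 for Mptx1, 3.58e-12 to 0.348 for Gkn1 and 2.16e-12 to 0.385 for Gkn2.

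Genes induced by glucocorticoids rose as a group. Of 30 measured members, 20 rose and none fell, against 7.02% and 4.79% of all genes. The median difference was 0.58, where the median of all genes was -0.005. Without a mean trend in the variance 14 rose and none fell, and on the mean of each gene's probe sets 18 rose and 1 fell. The largest rise was that of Hsd11b1, the enzyme that regenerates active glucocorticoid inside cells, which read 6.57 and 6.62 without DCI and 9.01 and 8.96 with it. The arrays with DCI were about equal to each other and far above the rest, a difference of 2.39 ± 0.09 (SE, adjusted p = 1.37e-07), or 5.23-fold.

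Fkbp5, a co-chaperone that lowers the receptor's affinity for its ligand, stood at 8.0 and 7.70 without DCI and 9.42 and 9.01 with it, and rose by 1.37 ± 0.09 (SE, adjusted p = 3.64e-06). Tsc22d3, which encodes the anti-inflammatory protein GILZ, read 7.82 and 8.04 without DCI and 9.47 and 9.18 with it, a rise of 1.40 ± 0.11 (SE, adjusted p = 1.81e-05). In both genes the arrays with DCI lay more than 2-fold above their matched arrays. The transcription factors Klf15 (1.82 ± 0.14 SE, adjusted p = 1.77e-05), Zbtb16 (1.59 ± 0.16 SE, adjusted p = 9.36e-05) and Klf9 (0.68 ± 0.07 SE, adjusted p = 0.000117) rose, as did the sulfotransferase Sult1a1 (1.5 ± 0.09 SE, adjusted p = 2.94e-06). Other probe sets of Fkbp5 (-0.03 to 0.32), Tsc22d3 (0.03 to 0.96), Klf9 (-0.21 to 1.12) and Zbtb16 (0.08 to 2.30) gave less in part. Dusp1, a phosphatase that switches off MAP kinases, rose by 0.37 ± 0.07 (SE, adjusted p = 0.00793), with an adjusted p from 0.00114 to 0.16 over the alternatives.

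The receptor gene itself did not pass at the probe set used. Nr3c1, the glucocorticoid receptor, read 8.98 and 8.82 without DCI and 8.78 and 8.75 with it. The difference was -0.13 ± 0.08 (SE, adjusted p = 0.35), with a 95% interval from -0.30 to 0.04. Its 5 other probe sets gave -0.759 to -0.006. At day 24 the probe set used gave -0.43 in the same fit and passed (adjusted p = 0.00235). Of 12 measured genes of steroid receptors and steroid handling, 5 rose (2 with the control array or the array with DCI alone left out) and none fell. Besides Hsd11b1 they included the drug exporter Abcb1b, at 8.32 and 7.93 without DCI and 9.47 and 8.91 with it, which rose by 1.06 ± 0.08 (SE, adjusted p = 9.71e-06), and the steroid hydroxylase Cyp3a11 (0.96 ± 0.18 SE, adjusted p = 0.0048). The exporter Abcb1a also passed (0.62 ± 0.16 SE, adjusted p = 0.0347). Adjusted p ran from 0.00272 to 0.151 for Cyp3a11 and 0.0119 to 0.53 for Abcb1a over the alternatives, and the other Abcb1b probe set gave 0.15.

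Genes induced by cAMP moved in the same direction. Of 23 measured members, 11 rose (7 without a mean trend, and 7 on the mean of each gene's probe sets) and none fell, with a median of 0.37. Per1, a clock gene that both signals are known to induce and that is on the glucocorticoid list too, read 6.85 and 6.90 without DCI and 8.30 and 8.26 with it, a rise of 1.40 ± 0.09 (SE, adjusted p = 5.39e-06). The nuclear receptor Nr4a1 rose by 0.72 ± 0.08 (SE, adjusted p = 0.000204), with levels of 8.65 and 8.61 without DCI and 9.22 and 9.48 with it. Pck1, the rate-limiting enzyme of gluconeogenesis, read 2.59 and 2.51 without DCI and 3.89 and 3.70 with it, near the bottom of the scale where differences are compressed, and rose by 1.25 ± 0.16 (SE, adjusted p = 0.000523), from 0.00014 to 0.135 over the alternatives. Its other probe sets gave 0.03 and 0.21. Crem (0.15 ± 0.14 SE, adjusted p = 0.603) and Ppargc1a (0.06 ± 0.13 SE, adjusted p = 0.855), which are known cAMP targets, did not pass, and their arrays with and without DCI overlapped.

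Phosphodiesterases, which degrade cAMP, rose in 6 of 17 measured cases and fell in none. Without a mean trend, or on the mean of each gene's probe sets, 4 rose. Pde7b stood at 7.52 and 7.28 without DCI and 9.83 and 9.64 with it, a rise of 2.33 ± 0.12 (SE, adjusted p = 8.55e-07), and Pde4d at 6.50 and 6.53 without DCI and 8.27 and 8.18 with it, a rise of 1.71 ± 0.11 (SE, adjusted p = 3.34e-06). Pde4b read 7.06 and 6.85 without DCI and 8.33 and 8.24 with it and rose by 1.33 ± 0.09 (SE, adjusted p = 5.12e-06). The levels of all 3 were close on the arrays with DCI, whether or not KGF was present. The Pde4d probe set not used gave 0.01, those of Pde7b 0.20 and 2.31, and those of Pde4b -0.04 to 1.33. Pde8a rose by 0.53 ± 0.11 (SE, adjusted p = 0.0101), with an adjusted p from 0.00535 to 0.816 over the alternatives and -0.36 at its other probe set. Pde3a (0.11 ± 0.16 SE, adjusted p = 0.77) and Pde10a (0.50 ± 0.16 SE, adjusted p = 0.0739) did not pass, though Pde10a did on the 4 day 17 arrays alone (adjusted p = 0.0318).

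Of 20 genes of protein kinase A and adenylate cyclase, 2 rose and 2 fell, against 7.02% and 4.79% of all genes. Pkib, an inhibitor of protein kinase A, fell from 5.17 and 5.08 without DCI to 2.50 and 2.70 with it, a difference of -2.52 ± 0.15 (SE, adjusted p = 2.3e-06), and its other probe set gave -0.92. The regulatory subunit Prkar2b rose by 0.86 ± 0.11 (SE, adjusted p = 0.000382) and the anchoring protein Akap12 by 0.67 ± 0.07 (SE, adjusted p = 0.00017). Adcy7, an adenylate cyclase of leukocytes among other cells, differed by -1.26 ± 0.14 (SE, adjusted p = 0.000165). Leukocyte markers fell on the same arrays, and their part in the fall of Adcy7 was not tested. Of 17 clock genes, 5 rose and 1 (Nr1d2, named after its values were seen) fell, with a difference of -0.58 and an adjusted p from 0.000775 to 0.059 over the alternatives. Besides Per1, the repressor gene Per2 rose by 0.97 ± 0.13 (SE, adjusted p = 0.000651). Npas2 (0.86 ± 0.15 SE, adjusted p = 0.00455) and Hlf (0.65 ± 0.13 SE, adjusted p = 0.00781) passed with adjusted p from 0.00267 to 0.187 and 0.00529 to 0.185 over the alternatives.

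**Figure D2:**
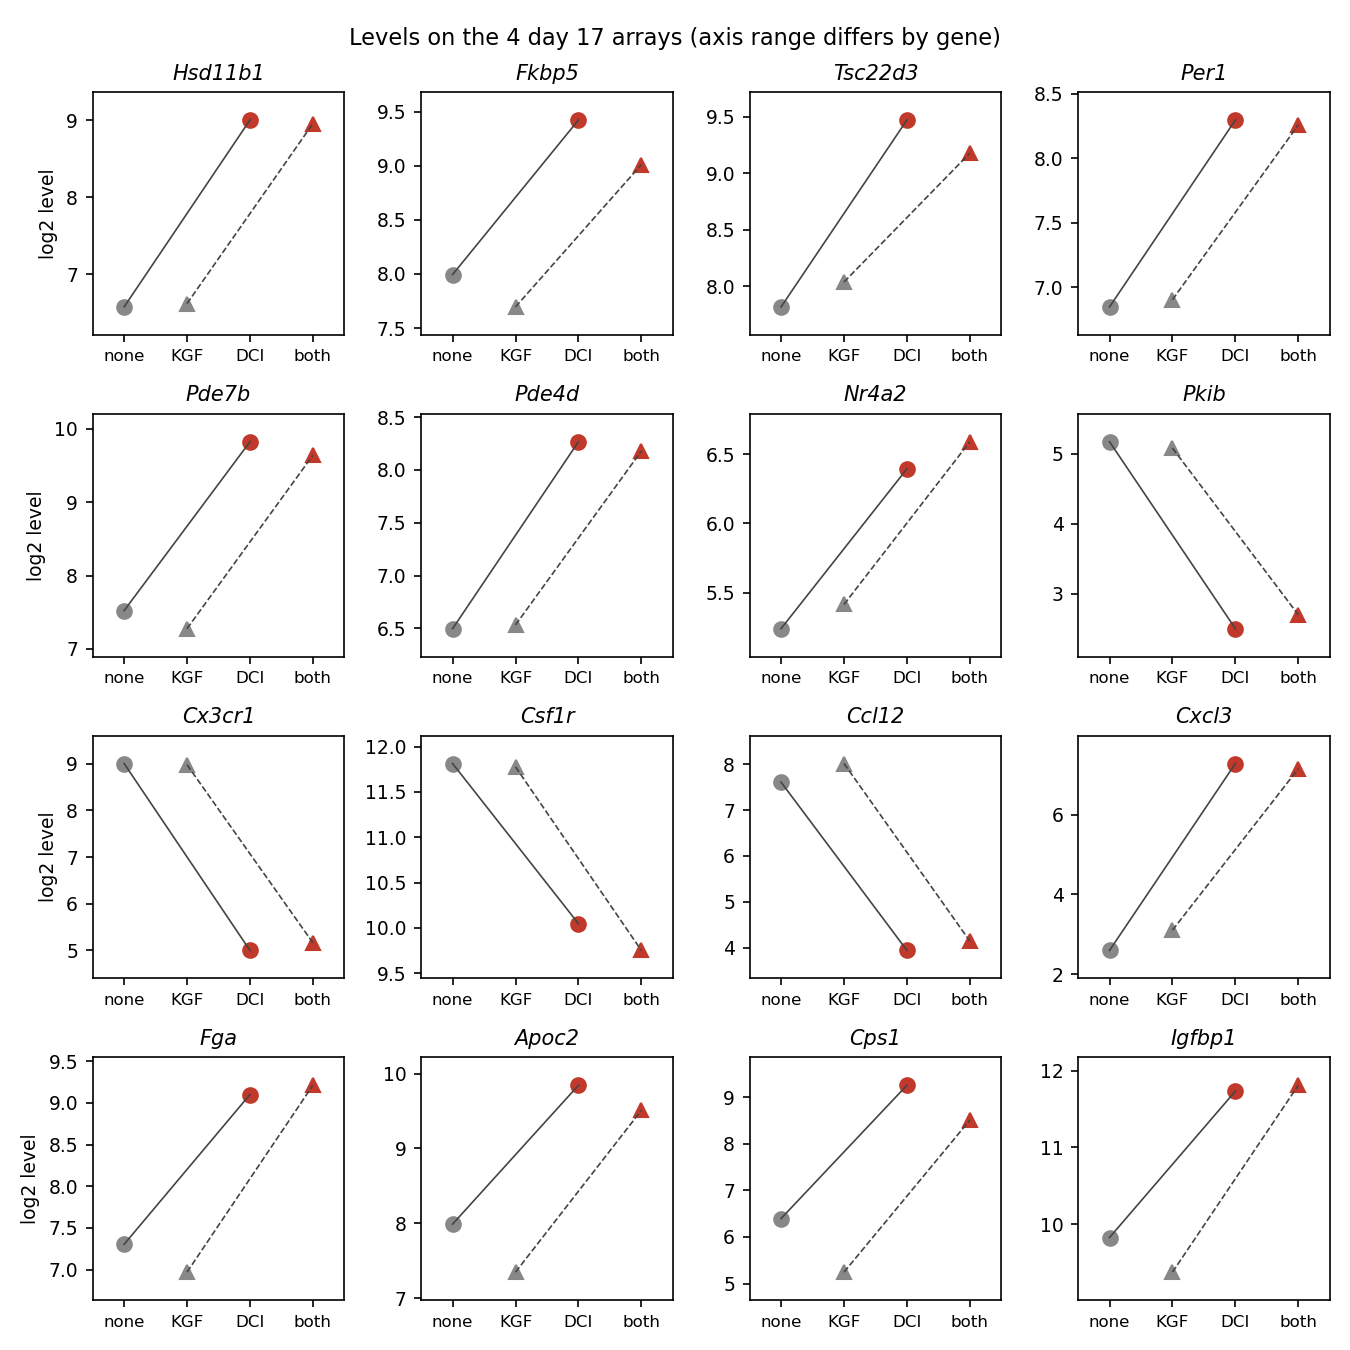
Log2 levels of 16 genes on the 4 day 17 arrays, labelled none for the control, KGF, DCI and both agents. Grey marks are arrays without DCI and red marks arrays with it, triangles are the arrays with KGF, and lines join the matched pairs, solid without KGF and dashed with it. In each panel the 2 arrays with DCI lie on the same side of the 2 without, lower for Pkib, Cx3cr1, Csf1r and Ccl12 and higher for the other 12 genes.

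Promoters of the induced genes were searched for the 2 response elements, since these genes rose together and the elements are where the receptor and CREB are known to act. The letters searched, on both strands of the 250 bases before each start in RefSeq (GRCm38.p6), were TGACGTCA for the cAMP response element (CRE), its part TGACG, and ACANNNTGT for the core of the glucocorticoid response element (GRE). Of 18193 genes, 14452 had such a promoter, and 2.50%, 25.9% and 5.27% of these held the letters. Every CRE match also holds TGACG. Among the genes that rose the shares were 2.81%, 25.6% and 5.93%, and among those that fell 1.62%, 23.1% and 6.61%, within a few percentage points of all promoters. Genes at least 2-fold different in both pairs held the letters at other rates. Of 126 promoters of the higher ones, 1.59% held the CRE, 15.1% its part and 9.52% the GRE core, and of 114 of the lower ones none held the CRE, 12.3% its part and 7.89% the GRE core, and no test of these shares was made. On the glucocorticoid list 6 of 24 promoters held the GRE core, and on the cAMP list 3 of 19 held the CRE and 15 of 19 its part. These letters are shared by many promoters, and a match is not a shown binding site. The stretches below show the match in capitals with 30 bases on each side, read on the gene's own strand, for genes of the 2 lists that rose. The first was given by the rule for printed promoters, and the other 5 were chosen after their values were seen. Sgk1 has a further GRE core match, at another of its starts.
Dusp1, chr17:26508578-26508645, - strand: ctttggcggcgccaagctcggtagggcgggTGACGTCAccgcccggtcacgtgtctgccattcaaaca
Errfi1, chr4:150854989-150855056, + strand: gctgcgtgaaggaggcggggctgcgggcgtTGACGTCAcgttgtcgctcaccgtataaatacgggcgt
Sgk1, chr10:21993674-21993742, + strand: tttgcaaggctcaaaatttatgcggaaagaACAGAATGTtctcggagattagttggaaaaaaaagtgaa
Mt1, chr8:94178967-94179035, + strand: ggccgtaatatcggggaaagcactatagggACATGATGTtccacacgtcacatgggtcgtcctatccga
Lcn2, chr2:32387853-32387921, - strand: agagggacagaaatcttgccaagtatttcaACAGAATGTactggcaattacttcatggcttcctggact
Map3k6, chr4:133240609-133240677, + strand: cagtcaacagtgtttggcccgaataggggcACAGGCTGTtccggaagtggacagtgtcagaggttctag
The first 2 carry the CRE and the other 4 the GRE core. Dusp1 is described above, and Errfi1, which restrains EGF receptor signalling, rose by 0.49 ± 0.10 (SE, adjusted p = 0.00856). Adjusted p ran from 0.000928 to 0.237 over the alternatives for Errfi1. The kinase Sgk1, which promotes sodium transport, rose by 0.85 ± 0.09 (SE, adjusted p = 0.000113), the metallothionein Mt1 by 0.33 ± 0.05 (SE, adjusted p = 0.00208) and the kinase Map3k6 by 0.91 ± 0.15 (SE, adjusted p = 0.00252), the last 2 with 0.000714 to 0.0909 and 0.00137 to 0.0696 over the alternatives. Lcn2, an iron-binding protein of the acute phase, read 8.53 and 8.83 without DCI and 9.33 and 9.78 with it and rose by 0.87 ± 0.06 (SE, adjusted p = 1.09e-05).

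Macrophage markers fell together. Of 27 measured, 23 fell, with a median difference of -1.70, and 21 were at least 2-fold lower in both pairs. Csf1r, the receptor for the growth factor on which macrophages depend, read 11.81 and 11.78 without DCI and 10.05 and 9.75 with it, a difference of -1.90 ± 0.07 (SE, adjusted p = 1.37e-07). Adgre1, a surface receptor that defines tissue macrophages, read 9.48 and 9.46 without DCI and 7.34 and 7.0 with it (-2.30 ± 0.12 SE, adjusted p = 1.2e-06). Cx3cr1, the fractalkine receptor, stood at 9.01 and 8.98 without DCI and 5.0 and 5.16 with it, a difference of -3.92 ± 0.13 (SE, adjusted p = 1.14e-07), or 15.1-fold. In these 3 genes the arrays within a group lay close together and the groups far apart. The other Cx3cr1 probe set gave -1.43.

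The lysozyme gene Lyz2 read 12.26 and 12.53 without DCI and 10.82 and 10.58 with it (-1.70 ± 0.10 SE, adjusted p = 2.12e-06), so that it stayed in the upper part of the scale with DCI while being lower. Hpgds, a prostaglandin D synthase, differed by -3.44 ± 0.14 (SE, adjusted p = 2.3e-07), Aif1 by -2.52 ± 0.10 (SE, adjusted p = 1.56e-07), and Ly86, a partner in endotoxin recognition, by -2.94 ± 0.14 (SE, adjusted p = 5.54e-07). Summed over the 27 markers on a linear scale, the arrays read 30116 and 31258 without DCI and 11697 and 9993 with it. In RNA from whole cultures, fewer cells of a type and less RNA of these genes per cell cannot be told apart. Of the 4 markers that did not fall, the scavenger receptors Marco (-0.48) and Msr1 (-0.23) did not pass, and Cd14 and Cd163 rose, the former by 0.56 ± 0.07 (SE, adjusted p = 0.000478). Cd163, a haemoglobin scavenger receptor that glucocorticoids are known to induce, read 2.98 and 3.39 without DCI and 4.81 and 4.04 with it, low on the scale, and rose by 1.24 ± 0.24 (SE, adjusted p = 0.00628), from 0.000165 to 0.15 over the alternatives. Marco, Msr1 and Cd14 were named after their values were seen.

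All 14 measured pan-leukocyte genes fell, with a median of -1.31. Ptprc, the common leukocyte antigen CD45, read 8.67 and 8.53 without DCI and 6.68 and 6.29 with it, a difference of -2.12 ± 0.14 (SE, adjusted p = 6.21e-06). Cd48 differed by -2.87 ± 0.15 (SE, adjusted p = 1e-06), the GTPase Rac2 by -2.17 ± 0.10 (SE, adjusted p = 5.55e-07) and the surface glycoprotein Cd52 by -2.10 ± 0.08 (SE, adjusted p = 1.5e-07). Other probe sets of Ptprc (-0.32) and Rac2 (-0.57) gave less. The summed level of the list was 7159 and 6166 without DCI and 2936 and 2589 with it. The summed markers of other blood cells were below those of the macrophage and pan-leukocyte lists on all 4 arrays, though single members were not low. Kit, on the mast cell list, read 7.59 and 7.69 without DCI and 8.12 and 8.70 with it. It rose by 0.77 ± 0.17 (SE, adjusted p = 0.0126, and 0.249 on the mean of probe sets). Ltf, on the neutrophil list, read 7.78 and 8.66 without DCI and 7.87 and 9.41 with it and did not pass (adjusted p = 0.133). The summed lymphocyte markers lay between 184 and 247 and the mast cell markers between 364 and 610. Of 8 lymphocyte genes only the B cell receptor subunit Cd79b passed (-1.34 ± 0.16 SE, adjusted p = 0.000309), and of 12 primitive erythroid genes none did. Neutrophil markers summed to 451 and 647 without DCI and 538 and 929 with it. Among them S100a8 (1.20 ± 0.17 SE, adjusted p = 0.0011) and Camp (1.18 ± 0.16 SE, adjusted p = 0.00064) rose and the receptor Csf3r (-0.93 ± 0.16 SE, adjusted p = 0.00305) fell, the last with an adjusted p from 0.00177 to 0.0822 over the alternatives.

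Of 16 CC chemokines 5 fell, 2 rose and 9 did not pass, with a median of 0.06. Of 15 CXC chemokines 7 rose and none fell, with a median of 0.39, and the difference between the 2 families was not tested. Ccl12, a monocyte attractant, read 7.61 and 8.02 without DCI and 3.94 and 4.14 with it, a difference of -3.77 ± 0.13 (SE, adjusted p = 1.14e-07). Ccl3 read 6.98 and 7.27 without DCI and 4.08 and 4.50 with it (-2.83 ± 0.14 SE, adjusted p = 7.56e-07), and the groups lay far apart in both. The falls of Ccl4 and Ccl2 were smaller, with differences of -0.94 and -0.52 on the log2 scale, while the eosinophil attractant Ccl11 rose, from 4.98 and 5.23 to 6.87 and 6.68 (1.67 ± 0.15 SE, adjusted p = 3.44e-05).

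Among CXC chemokines, Cxcl3 read 2.60 and 3.11 without DCI and 7.28 and 7.15 with it, a rise of 4.36 ± 0.21 (SE, adjusted p = 5.99e-07), which passed under every alternative run for it. Cxcl2 read 5.0 and 4.80 without DCI and 8.35 and 8.22 with it, a rise of 3.39 ± 0.13 (SE, adjusted p = 1.37e-07). Both attract neutrophils through the receptor CXCR2. Ppbp, a chemokine of platelets, read 6.73 and 6.28 without DCI and 10.97 and 11.03 with it, and the 2 arrays with DCI were almost equal (4.50 ± 0.27 SE, adjusted p = 2.26e-06). Its call was lost only with a robust prior, at 0.0785. Cxcl15, also called lungkine, read 5.84 and 6.96 without DCI and 6.82 and 8.68 with it. The KGF array exceeded the array with DCI alone, so the groups overlapped, and its rise of 1.35 ± 0.20 (SE, adjusted p = 0.00108) had an adjusted p from 0.00012 to 0.0566 over the alternatives.

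Of 16 cytokines and genes of prostaglandin synthesis, 3 rose and 3 fell. Il6 read 5.73 and 5.82 without DCI and 7.80 and 7.53 with it, a rise of 1.89 ± 0.13 (SE, adjusted p = 6.54e-06), and the alarmin Il33 rose by 0.89 ± 0.08 (SE, adjusted p = 3.98e-05). Csf1, the ligand of the receptor Csf1r, differed by -0.72 ± 0.08 (SE, adjusted p = 0.000162) and Tnf, a cytokine made chiefly by macrophages, by -0.67 ± 0.16 (SE, adjusted p = 0.0194), with adjusted p from 7.72e-05 to 0.0739 and 0.014 to 0.247 over the alternatives. Ptgs2, the inducible cyclooxygenase, did not pass (0.30 ± 0.11 SE, adjusted p = 0.118). Of 20 genes of the interferon response and antigen presentation, 5 rose and 5 fell. Without a mean trend, or from the KGF pair alone, 3 fell, and from the other pair alone 3 rose. The antiviral membrane protein Bst2 read 9.63 and 9.30 without DCI and 11.23 and 10.87 with it and rose by 1.59 ± 0.08 (SE, adjusted p = 6.98e-07). The immunoproteasome subunits Psmb8 (-1.13 ± 0.12 SE, adjusted p = 0.000164) and Psmb9 (-0.98 ± 0.13 SE, adjusted p = 0.000545) fell, together with the leukocyte markers, whose part in this was not tested. Of 10 genes of complement and the acute phase, 7 rose and none fell, with a median of 0.64. The protease inhibitor Serpina3n read 8.80 and 8.91 without DCI and 10.94 and 10.69 with it (1.96 ± 0.08 SE, adjusted p = 2.38e-07), Orm1 rose by 1.54 ± 0.18 (SE, adjusted p = 0.0003) and haptoglobin, Hp, by 1.27 ± 0.08 (SE, adjusted p = 4.46e-06).

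Genes for plasma proteins of the liver and yolk sac rose nearly throughout the list. Of 19 measured, 17 rose and none fell, with a median of 1.13. For all 19 the arrays with DCI lay above both arrays without it, where 50.1% of all genes had no overlap in either direction. The fibrinogen chains moved alike. Fga read 7.30 and 6.97 without DCI and 9.10 and 9.21 with it (2.02 ± 0.11 SE, adjusted p = 1.2e-06), Fgb 8.12 and 7.91 without DCI and 9.94 and 9.89 with it (1.90 ± 0.08 SE, adjusted p = 1.77e-07), and Fgg 8.51 and 8.07 without DCI and 10.19 and 10.19 with it (1.90 ± 0.10 SE, adjusted p = 1.02e-06). In all 3 the 2 arrays with DCI lay close together. Fetuin A, Ahsg, rose by 2.13 ± 0.13 (SE, adjusted p = 2.29e-06).

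Albumin, Alb, rose on a high level, from 11.89 and 11.53 to 12.68 and 12.87 (1.06 ± 0.10 SE, adjusted p = 7.87e-05). Alpha-fetoprotein, Afp, read 12.39 and 11.94 without DCI and 12.90 and 12.88 with it (0.73 ± 0.10 SE, adjusted p = 0.000919), with an adjusted p from 3.75e-05 to 0.0687 over the alternatives. Transthyretin, Ttr, was higher in both pairs and did not pass (0.34 ± 0.17 SE, adjusted p = 0.283), except on the 4 day 17 arrays alone (adjusted p = 0.0078). Serpina6, the corticosteroid-binding globulin, which was named after its values were seen, did not pass (0.92 ± 0.31 SE, adjusted p = 0.0937). The summed level of the list was 16650 and 14025 without DCI and 27837 and 29194 with it.

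Of 13 apolipoproteins and genes of lipoprotein assembly, 8 rose and 1 fell, with a median of 0.79. Apoc2, the activator of lipoprotein lipase, read 7.99 and 7.35 without DCI and 9.85 and 9.51 with it (2.01 ± 0.15 SE, adjusted p = 1.17e-05). Apoh rose by 1.72 ± 0.11 (SE, adjusted p = 4.46e-06), Apoa1, the main protein of HDL, by 1.43 ± 0.08 (SE, adjusted p = 1.62e-06), Apoa2 by 1.37 ± 0.09 (SE, adjusted p = 3.56e-06) and Apoa4 by 1.25 ± 0.10 (SE, adjusted p = 1.98e-05). The other Apoh probe set gave -0.07. Apob, the scaffold of VLDL and chylomicrons, read 7.21 and 6.96 without DCI and 7.60 and 7.44 with it, with the arrays with DCI above the others by a small margin (0.44 ± 0.11 SE, adjusted p = 0.0224, and 0.0142 to 0.251 over the alternatives). The member that fell was Apoe (-0.46 ± 0.06 SE, adjusted p = 0.000931, from 0.000375 to 0.0542 over the alternatives), which macrophages also make and which was named after its values were seen. Of 11 genes of yolk sac endocytosis 2 rose and 2 fell (4 fell on the 4 day 17 arrays alone). The endocytic receptor Cubn read 5.99 and 5.51 without DCI and 7.01 and 7.25 with it, a rise of 1.38 ± 0.17 (SE, adjusted p = 0.000346), and the protease Ctsc, which leukocytes also express, differed by -1.69 ± 0.09 (SE, adjusted p = 1.16e-06). The scaffold Pdzk1 (0.58 ± 0.15 SE, adjusted p = 0.0307) and the protease Ctsh (-0.35 ± 0.07 SE, adjusted p = 0.00906) passed with adjusted p from 0.0239 to 0.478 and 0.00743 to 0.208 over the alternatives.

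Of 13 transcription factors of endoderm, 5 rose and none fell. Without a mean trend in the variance 2 rose, and with a common KGF term or either array of the KGF pair left out 3 did. Foxa3 read 6.17 and 5.85 without DCI and 7.02 and 7.0 with it (1.00 ± 0.13 SE, adjusted p = 0.000523), and Hnf4a, a master regulator of hepatocytes and enterocytes, 8.17 and 7.58 without DCI and 8.87 and 8.56 with it (0.84 ± 0.10 SE, adjusted p = 0.000241). Sox17 (1.41 ± 0.23 SE, adjusted p = 0.00261) and Gata4 (0.65 ± 0.18 SE, adjusted p = 0.0454) passed with adjusted p from 1.25e-06 to 0.27 and 0.00461 to 0.67 over the alternatives. Nkx2-1, the factor that marks the lung and thyroid lineages, stood at 4.48 and 4.77 without DCI and 4.66 and 4.66 with it, with a difference of 0.04 ± 0.16 (SE, adjusted p = 0.927) and an interval from -0.31 to 0.39.

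Enzymes of gluconeogenesis, amino acid breakdown and the urea cycle rose in 9 of 15 cases (5 where the lowest 40% of genes were left out) and fell in none, with a median of 0.81. Cps1 read 6.40 and 5.25 without DCI and 9.25 and 8.51 with it (3.06 ± 0.18 SE, adjusted p = 2.28e-06), or 2.86 and 3.26 in the 2 pairs. Arginase, Arg1, rose by 1.45 ± 0.10 (SE, adjusted p = 7.48e-06). Tdo2, which opens tryptophan breakdown, read 2.85 and 2.42 without DCI and 5.36 and 4.86 with it (2.48 ± 0.19 SE, adjusted p = 1.28e-05), and its other probe sets gave 0.16 and 0.49. Igfbp1, an IGF-binding protein of liver that glucocorticoids and cAMP are known to induce, read 9.83 and 9.38 without DCI and 11.73 and 11.81 with it, a rise of 2.17 ± 0.10 (SE, adjusted p = 5.55e-07), or 4.5-fold.

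**Figure D3:**
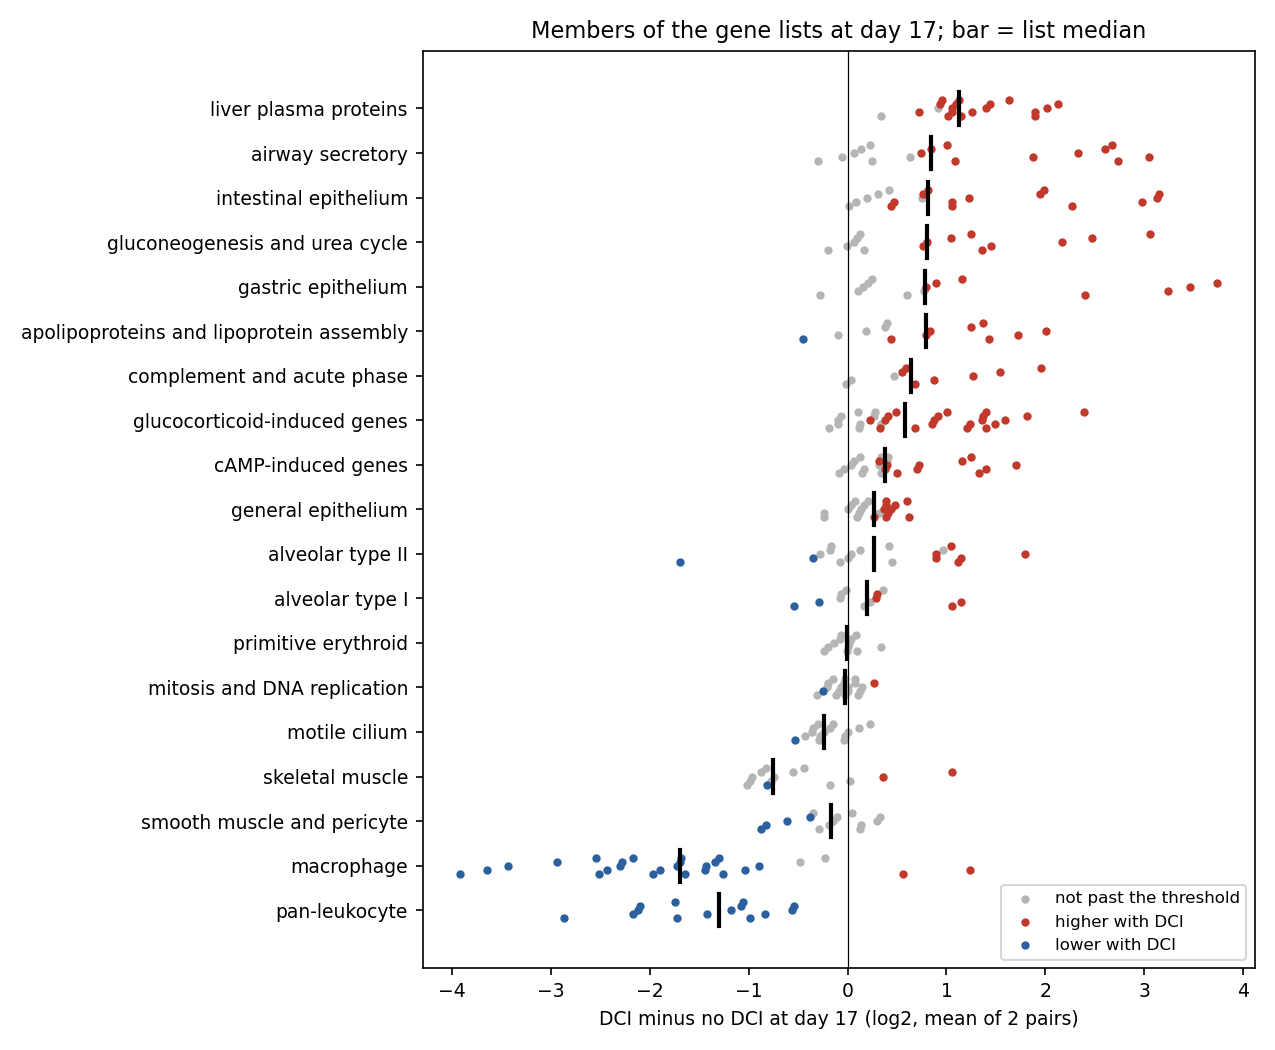
Each point is a measured member of the list named on the left, placed by its log2 difference DCI minus no DCI at day 17 (mean of 2 pairs). Red points rose, blue points fell, grey points did not pass, and black bars are list medians. Macrophage and pan-leukocyte medians lie at -1.70 and -1.31, liver plasma proteins at 1.13, and primitive erythroid and mitosis genes close to 0.

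Genes of the stomach, intestine and secretory airway rose in number. Of 14 gastric genes 7 rose and none fell (median 0.79, and 4 rose without a mean trend). Of 19 intestinal genes 13 rose and none fell (median 0.82), and of 17 airway secretory genes 10 rose and none fell (median 0.84). The intestinal count was 10 without a mean trend, with a common KGF term or on the mean of probe sets. The airway count was 7 with a robust prior. The trefoil peptides of the mucus layer moved together. Tff1 read 8.11 and 8.43 without DCI and 11.88 and 12.13 with it (3.74 ± 0.11 SE, adjusted p = 4.73e-08), Tff2 6.12 and 5.96 without DCI and 8.37 and 8.52 with it (2.41 ± 0.12 SE, adjusted p = 6.84e-07), and Tff3 8.08 and 7.35 without DCI and 10.32 and 9.66 with it (2.27 ± 0.06 SE, adjusted p = 4.17e-08). In all 3 the 2 groups stood more than 2-fold apart.

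The gastrokines Gkn1 and Gkn2 rose too, with pairs that were far apart. Gkn1 read 7.26 and 5.57 without DCI and 8.80 and 10.97 with it, so the pair without KGF gave 1.53 and the pair with KGF 5.40. Among intestinal genes, Olfm4 read 6.32 and 6.04 without DCI and 8.99 and 9.67 with it (3.15 ± 0.17 SE, adjusted p = 1.39e-06), and Spink4 6.78 and 6.47 without DCI and 9.68 and 9.52 with it (2.98 ± 0.08 SE, adjusted p = 3.04e-08), both far above the arrays without DCI. Mptx1 read 5.49 and 4.12 without DCI and 8.35 and 7.53 with it and was higher by more than 2-fold in both pairs.

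Among airway genes, the mucin Muc5b read 5.47 and 5.33 without DCI and 8.01 and 8.90 with it (3.05 ± 0.21 SE, adjusted p = 6.22e-06). Clca1, of mucus-producing cells, read 4.78 and 4.99 without DCI and 7.41 and 7.71 with it (2.67 ± 0.18 SE, adjusted p = 5.27e-06), and its other probe set gave -0.04. Agr2, a disulfide isomerase needed for mucins, rose by 2.60 ± 0.24 (SE, adjusted p = 4.6e-05) and Scgb1a1, the club cell secretory protein, by 2.74 ± 0.35 (SE, adjusted p = 0.000457). Both lost their call with a robust prior, with adjusted p from 3.67e-07 to 0.122 and 2.94e-05 to 0.205 over the alternatives. Bpifa1, an antimicrobial protein of upper airways, read 6.51 and 10.38 without DCI and 7.98 and 10.92 with it. The 2 arrays with KGF were the highest, so the groups overlapped, and its difference for DCI was 1.00 ± 0.23 (SE, adjusted p = 0.0178), from 0.00114 to 0.412 over the alternatives. Of 15 motile cilium genes none rose. Dnaic1 alone fell (-0.53 ± 0.14 SE, adjusted p = 0.0335, from 0.0271 to 0.42 over the alternatives), and Foxj1 did not pass (-0.04 ± 0.20 SE, adjusted p = 0.944).

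General epithelial genes gave small rises: 10 of 21 rose and none fell, with a median of 0.27. Without a mean trend in the variance 3 of the 21 rose, and with the control array or the array with DCI alone left out 6 did. The transcription factor Elf3 read 7.23 and 7.67 without DCI and 7.76 and 8.38 with it and rose by 0.62 ± 0.09 (SE, adjusted p = 0.00132), and within each group the array with KGF was the higher. Epcam rose by 0.39 ± 0.06 (SE, adjusted p = 0.00188) and Cdh1, E-cadherin, by 0.27 ± 0.06 (SE, adjusted p = 0.0152), with adjusted p from 0.00118 to 0.0716 and 0.0145 to 0.221 over the alternatives, and for Cdh1 the groups overlapped. The summed level of the list was 16235 and 20118 without DCI and 19706 and 24663 with it, and that of the gastric list 1284 and 895 without DCI and 6097 and 11197 with it. The part of these epithelial genes in the gastric, intestinal and airway rises was not tested. Of 11 squamous keratins and related genes, 2 rose and 2 fell, against 7.02% and 4.79% of all genes. Krt13 (1.26 ± 0.16 SE, adjusted p = 0.000408) and Krt6a (0.86 ± 0.13 SE, adjusted p = 0.00174) rose, from 1.92e-06 to 0.0527 and 0.000129 to 0.0549 over the alternatives, while Krt14 fell, with a difference of -0.64 on the log2 scale.

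Markers of alveolar type II cells, which make lung surfactant, gave no common direction. Of 18 measured, 6 rose and 2 fell (10 rose with the control array or the array with DCI alone left out), and the median was -0.07 in the pair without KGF and 0.67 in the pair with KGF. Sftpc, surfactant protein C, read 4.38 and 5.46 without DCI and 5.40 and 8.03 with it. The array with both agents stood alone, the KGF array lay level with the array with DCI alone, and the pairs gave 1.03 and 2.57. Its mean difference was 1.80 ± 0.28 (SE, adjusted p = 0.0016), with an adjusted p from 1.56e-06 to 0.119 over the alternatives and -0.25 at its other probe set.

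The other surfactant protein genes did not pass for the mean of the 2 pairs. Sftpa1 gave 0.26 and 1.66 in the 2 pairs (mean 0.96 ± 0.30 SE, adjusted p = 0.0664), Sftpb -0.10 and 0.94 (0.42 ± 0.21 SE, adjusted p = 0.28), and Sftpd -0.29 and 0.54 (0.12 ± 0.15 SE, adjusted p = 0.709). In each the pair with KGF gave the higher difference, and this difference between the pairs was not tested. The KGF pair alone sets 1 array against 1, with no day 17 spread by which to judge its differences. On the 4 day 17 arrays alone Sftpa1 passed (adjusted p = 0.0395). Abca3, the surfactant lipid transporter, differed by 0.01 ± 0.08 (SE, adjusted p = 0.98), with an interval from -0.17 to 0.19. Napsa, a protease that processes surfactant protein B, read 5.69 and 5.51 without DCI and 6.36 and 6.63 with it and rose by 0.89 ± 0.13 (SE, adjusted p = 0.00137). Cldn18, a tight junction protein of lung and stomach, rose by 1.15 ± 0.15 (SE, adjusted p = 0.000463) and the calcium-binding protein S100g by 1.12 ± 0.15 (SE, adjusted p = 0.000776). The 2 members that fell were Lyz2 and Ctsh, and Lyz2 is on the macrophage list too.

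Of 12 type I markers 4 rose and 2 fell. With any of the 4 day 17 arrays left out 2 rose and 0 to 1 fell, and without a mean trend 2 rose and 1 fell. The water channel Aqp5 read 5.97 and 7.27 without DCI and 7.27 and 8.08 with it, with the KGF array and the array with DCI alone almost equal, and rose by 1.06 ± 0.13 (SE, adjusted p = 0.000413). Ager, a receptor abundant in type I cells, did not pass (0.36 ± 0.11 SE, adjusted p = 0.071), except with the lowest 40% of genes left out (adjusted p = 0.0478). Of 15 ion and water channels, 4 rose and none fell, but 1 rose without a mean trend or on the mean of each gene's probe sets, and 2 with either array of the KGF pair left out or with a common KGF term. Cftr, the chloride channel, rose by 0.82 ± 0.18 (SE, adjusted p = 0.0137) and Aqp8 by 1.61 ± 0.36 (SE, adjusted p = 0.0158), from 0.0027 to 0.226 and 1.89e-05 to 0.423 over the alternatives.

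Contractile genes of smooth muscle fell in 4 of 14 cases (2 with either array of the KGF pair left out) and rose in none. Tagln, an actin-binding protein, read 11.42 and 11.44 without DCI and 10.64 and 10.48 with it (-0.87 ± 0.07 SE, adjusted p = 1.16e-05). Acta2, smooth muscle actin, read 11.88 and 12.26 without DCI and 11.48 and 11.43 with it (-0.62 ± 0.09 SE, adjusted p = 0.000906), from 6.48e-06 to 0.102 over the alternatives. Lmod1 (-0.82) and Tpm2 (-0.38) also fell, with adjusted p from 0.00348 to 0.13 and 0.00154 to 0.228 over the alternatives. Of 15 cardiac genes none rose and Myh7 alone fell (-0.64 ± 0.15 SE, adjusted p = 0.0175, from 0.0019 to 0.337 over the alternatives). These counts turned with the arrays used: 4 fell and none rose with the control array or the array with DCI alone left out, 2 rose and none fell with either array of the KGF pair left out, and 2 rose and 2 fell on the 4 day 17 arrays alone. The median was 0.10 in the pair without KGF and -0.31 in the pair with KGF.

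Skeletal muscle genes did not behave alike in the 2 pairs. Of 14 measured, 2 rose and 1 fell, while the median was 0.21 in the pair without KGF and -1.48 in the pair with KGF. Mylpf, a myosin light chain of fast muscle, read 8.02 and 10.80 without DCI and 8.29 and 8.78 with it. Myh3, embryonic myosin, read 6.89 and 9.83 without DCI and 6.90 and 7.79 with it, and Neb, which encodes nebulin, 3.86 and 6.98 without DCI and 3.93 and 4.94 with it. In all 3 the KGF array stood far above the other 3 arrays, and the groups overlapped. The summed level of the list was 2571 and 10414 without DCI and 3004 and 4063 with it. With the control array or the array with DCI alone left out, so that the KGF pair alone gave the difference, 11 of the 14 fell, and with either array of the KGF pair left out none did. Ckm, muscle creatine kinase, rose in both pairs (1.05 ± 0.10 SE, adjusted p = 6.11e-05), and its other probe set gave 0.06.

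**Figure D4:**
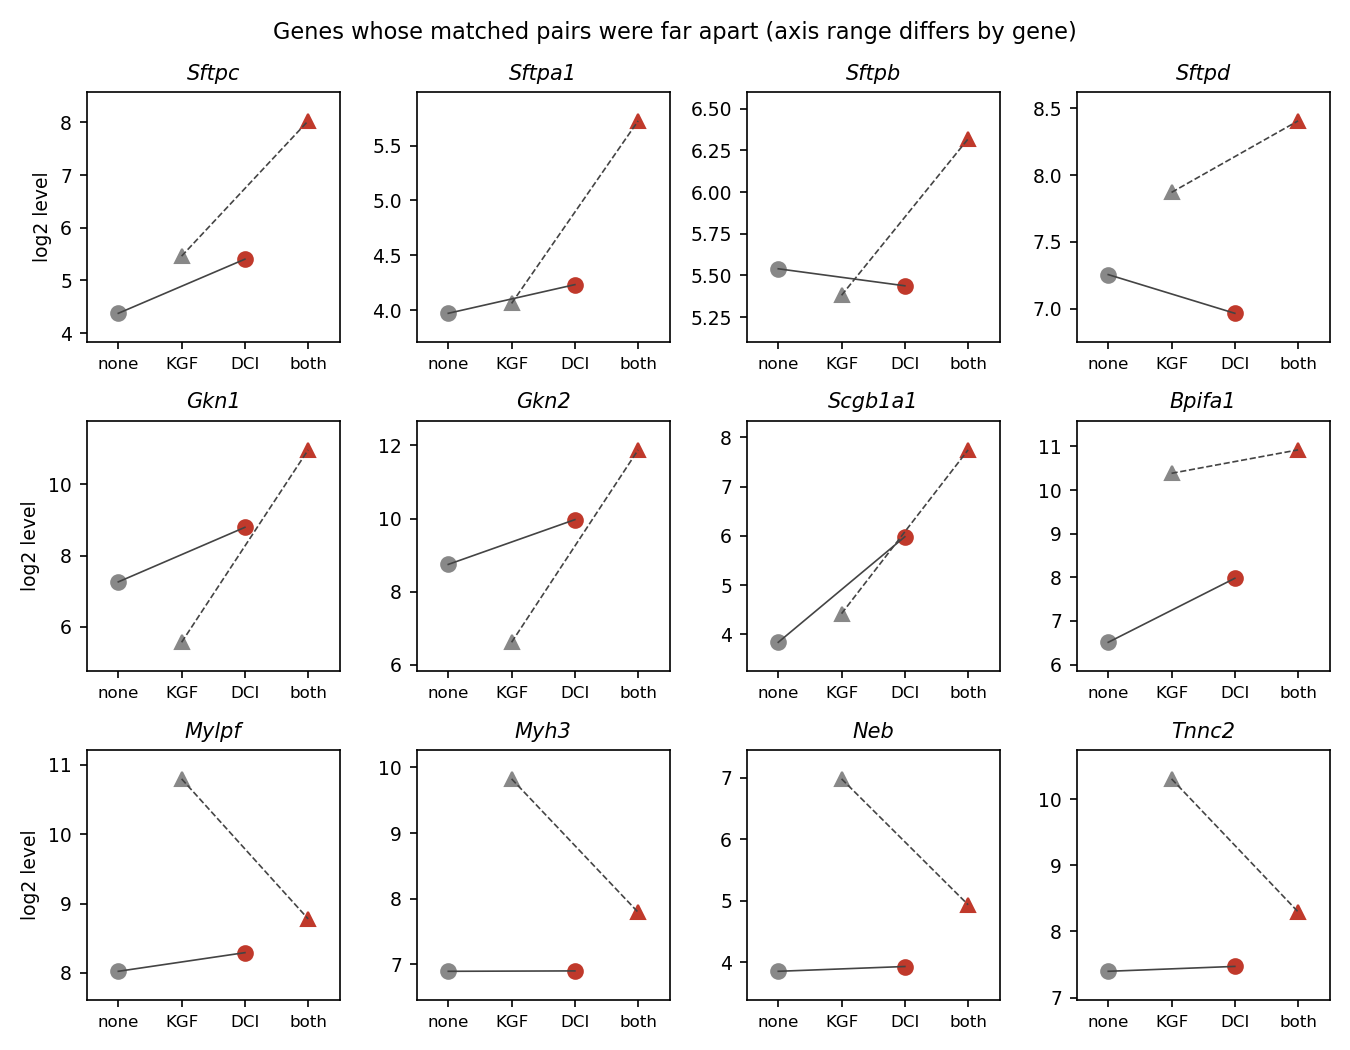
Log2 levels of 12 genes on the 4 day 17 arrays, drawn as in the plot of levels by array, for genes whose matched pairs were far apart. The array with both agents is the highest for Sftpc, Sftpa1, Sftpb, Sftpd, Gkn1, Gkn2, Scgb1a1 and Bpifa1, and the KGF array is the highest for Mylpf, Myh3, Neb and Tnnc2.

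The difference between the pairs, which is the KGF by DCI combination at day 17, rests on 4 single arrays and has no test. It was at least 2-fold for 138 genes. The 5 genes with the largest lower difference in the pair with KGF were Myf5, Mylpf, Mymx, Myot and Prr32, of which Myf5 (a myogenic factor), Mylpf, Mymx (a protein of myoblast fusion) and Myot (of the Z disc) belong to skeletal muscle. Myf5 gave 0.90 without KGF and -1.52 with it, Mylpf 0.27 and -2.02, Mymx 0.74 and -1.43, Myot 0.03 and -2.14, and Prr32 0.27 and -1.88. The 5 with the largest higher difference were Gkn1, Gkn2, the epidermal protein Hrnr, the pancreatic elastase Cela2a and the lectin Reg1. Gkn2 gave 1.22 and 5.26, Hrnr -1.96 and 1.04, Cela2a -0.06 and 2.44, and Reg1 1.02 and 3.25. Of these 10 genes only Gkn1, Gkn2 and Reg1 passed for the mean DCI difference, and each lost that call under an alternative (Reg1 from 4.64e-10 to 0.323). The other 7 did not pass for that mean. All 10 were chosen by the gap between the pairs, so a large difference in a single pair restates that choice.

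Matrix genes rose in part. Of 21 collagens and other matrix genes 8 rose (4 without a mean trend) and 1 fell, led by Col15a1 (0.90 ± 0.12 SE, adjusted p = 0.000618), Col6a1 (0.82 ± 0.06 SE, adjusted p = 9e-06) and Col6a2 (0.80 ± 0.09 SE, adjusted p = 0.00017). Col1a1, of collagen I, read 10.89 and 10.90 without DCI and 11.33 and 11.30 with it (0.42 ± 0.07 SE, adjusted p = 0.00195), from 0.00104 to 0.0714 over the alternatives. Of 14 metalloproteinases and inhibitors 4 rose and 2 fell. Mmp9, a gelatinase, read 5.50 and 5.67 without DCI and 8.33 and 7.73 with it, a rise of 2.45 ± 0.17 (SE, adjusted p = 7.14e-06), and its other probe set gave 2.53. Mmp12, the elastase of macrophages, differed by -1.57 ± 0.18 (SE, adjusted p = 0.000232), and the inhibitor Timp1 rose by 0.81 ± 0.09 (SE, adjusted p = 0.000147). Of 17 endothelial genes 2 rose and 1 fell, against 7.02% and 4.79% of all genes. The VEGF receptor Flt1 rose by 0.61 ± 0.09 (SE, adjusted p = 0.00151), and Cldn5 (0.44 ± 0.09 SE, adjusted p = 0.0116) and Car4 (-0.47 ± 0.12 SE, adjusted p = 0.0346) passed with adjusted p from 0.00832 to 0.168 and 0.0136 to 0.374 over the alternatives.

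The adipocyte list gave no common direction: of 13 measured, 3 rose (1 without a mean trend) and 2 fell, with a median of 0.00. Mrap, which carries the ACTH receptor to the cell surface in adrenal and fat cells, read 5.99 and 5.33 without DCI and 9.25 and 8.52 with it, a rise of 3.23 ± 0.11 (SE, adjusted p = 1.21e-07), or 9.37-fold, while its other probe set gave -0.18. Pparg, the master regulator of fat cells, rose by 0.63 ± 0.17 (SE, adjusted p = 0.038) and Fabp4 by 0.36 ± 0.07 (SE, adjusted p = 0.0064), from 0.0104 to 0.557 and 0.00293 to 0.114 over the alternatives. The fatty acid transporter Cd36 (-0.99 ± 0.11 SE, adjusted p = 0.000205) and the lipid droplet protein Plin2 (-0.61 ± 0.06 SE, adjusted p = 5.28e-05) fell, and macrophages express both. Adipoq, a hormone of mature fat cells, stayed at the bottom of the scale, at 2.72 and 2.82 without DCI and 2.82 and 2.45 with it. Of 10 steroid synthesis genes Mrap and Cyp17a1 (1.37 ± 0.18 SE, adjusted p = 0.000566) rose.

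In the growth factor pathways single genes passed, and their counts stand against 7.02% of all genes that rose and 4.79% that fell. Of 15 genes of FGF receptors and feedback 3 rose (1 without a mean trend or on the mean of probe sets), among them Fgf10, a mesenchymal ligand of lung branching, which read 5.0 and 5.0 without DCI and 6.33 and 5.86 with it (1.10 ± 0.15 SE, adjusted p = 0.000818). Fgfr1 (0.45 ± 0.09 SE, adjusted p = 0.00897) and the inhibitor Spry2 (0.40 ± 0.08 SE, adjusted p = 0.00593) passed with adjusted p from 0.00437 to 0.253 and 0.00482 to 0.251 over the alternatives. Of 16 genes of the IGF axis and imprinted growth genes 6 rose and 2 fell (none fell without a mean trend or with the control array or the array with DCI alone left out). The imprinted genes Dlk1 (0.72 ± 0.06 SE, adjusted p = 1.72e-05) and Mest (0.64 ± 0.06 SE, adjusted p = 8.73e-05) and the adaptor Irs2 (0.82 ± 0.11 SE, adjusted p = 0.000653) rose with Igfbp1, whereas Igf1 did not pass (-0.16 ± 0.06 SE, adjusted p = 0.14). Of 16 BMP pathway genes 2 rose and 2 fell, with the ligand Bmp4 lower (-0.58 ± 0.08 SE, adjusted p = 0.000517) and the activin antagonist Fst higher (1.00 ± 0.14 SE, adjusted p = 0.000755). Of 18 Wnt pathway genes 5 rose (1 to 2 with a left-out array, 2 without a mean trend) and 1 fell. The 4 named by the rule, Frzb (0.99), Wnt2 (0.70), Dkk3 (0.48) and Dkk1 (-0.69), had adjusted p from 0.00116 to 0.333, 0.00211 to 0.086, 0.00311 to 0.0606 and 0.0188 to 0.395 over the alternatives.

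Of 19 genes of hypoxia and glycolysis 7 rose (4 without a mean trend) and none fell, led by Ndrg1, which read 9.46 and 9.36 without DCI and 10.56 and 10.64 with it (1.19 ± 0.07 SE, adjusted p = 3.32e-06). The oxygen sensor Egln3 rose by 0.67 ± 0.07 (SE, adjusted p = 0.000146) and Vegfa by 0.60 ± 0.07 (SE, adjusted p = 0.000241). Of 20 genes of sterol and fatty acid synthesis 6 rose and none fell (2 to 3 rose without a mean trend, on the mean of probe sets or with the control array, the array with DCI alone or the array with both agents left out), with Insig1, which holds back sterol synthesis, higher by 0.54 ± 0.08 (SE, adjusted p = 0.000911). Of 19 genes of amino acid and unfolded protein stress 9 rose (3 without a mean trend, 5 with the control array or the array with DCI alone left out) and 1 fell (median 0.37). Cth, an enzyme of cysteine synthesis, rose by 1.37 ± 0.11 (SE, adjusted p = 1.53e-05), and the stress factor Atf3 fell, with a difference of -0.58 and an adjusted p from 0.00437 to 0.172 over the alternatives.

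Of 19 genes of mitosis and DNA replication 1 rose and 1 fell, near the shares of all genes (7.02% and 4.79%), with a median of -0.02. Mki67 read 10.03 and 9.88 without DCI and 9.65 and 9.64 with it, was lower in both pairs and did not pass (-0.31 ± 0.11 SE, adjusted p = 0.101), except on the 4 day 17 arrays alone (adjusted p = 0.0133). The 2 that passed, Pcna (-0.25 ± 0.06 SE, adjusted p = 0.0237) and Rrm2 (0.27 ± 0.07 SE, adjusted p = 0.0295), moved in opposite directions, from 0.0199 to 0.342 and 0.0193 to 0.629 over the alternatives. Of 16 neuronal genes Stmn2 alone passed, at 8.70 and 8.57 without DCI and 10.82 and 10.34 with it (1.94 ± 0.12 SE, adjusted p = 2.26e-06), and 3 rose on the 4 day 17 arrays alone. Of 8 housekeeping genes none rose and Gusb (-0.49 ± 0.08 SE, adjusted p = 0.00203) and Hprt (-0.26 ± 0.06 SE, adjusted p = 0.0188) fell, the last with an adjusted p from 0.0189 to 0.276 over the alternatives. All 8 differences lay below 0, from -0.49 to -0.04, with a median of -0.12 where that of all genes was -0.005. Actb did not pass (-0.17 ± 0.06 SE, adjusted p = 0.0741), except with a robust prior (adjusted p = 0.03) or with the lowest 40% of genes left out (adjusted p = 0.0321).

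The same comparison at day 24 rests on 4 other arrays, and the fit tests the difference between the days. At day 24, 4062 genes passed (22.3%), 1679 higher and 2383 lower. The genes that rose on both days were 758, which is 59.4% of those that rose at day 17 and 45.1% of those that rose at day 24. Those that fell on both days were 657, or 75.4% of the falls at day 17 and 27.6% of those at day 24. A further 30 genes rose at day 17 and fell at day 24, and 9 did the reverse. The DCI difference itself differed between the days for 767 genes (4.22%). It was lower at day 24 for 580 (3.19%) and higher for 187 (1.03%), and 334 of the 767 had passed at day 17. The median SE of this comparison was 0.173, and 144 genes passed without a mean trend in the variance.

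Macrophage markers were lower still at day 24. The median difference was -1.70 at day 17 and -3.26 at day 24. For 19 of the 27 markers the difference was lower at day 24, against 3.19% of all genes. Lyz2 read 13.03 and 12.69 without DCI and 9.10 and 8.68 with it at day 24, and its DCI difference moved by -2.27 ± 0.14 (SE, adjusted p = 2.65e-05) from day 17 to day 24. Aif1 moved by -2.17 ± 0.14 (SE, adjusted p = 2.88e-05), Adgre1 by -1.41 ± 0.17 (SE, adjusted p = 0.00171) and Ptprc by -1.25 ± 0.20 (SE, adjusted p = 0.00847), the last 2 with 0.000481 to 0.0565 and 0.00666 to 0.16 over the alternatives. Cx3cr1 went the other way, with -3.92 at day 17 and -3.08 at day 24 (change 0.84 ± 0.19 SE, adjusted p = 0.0339, from 0.0225 to 0.237 over the alternatives).

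Many liver and yolk sac genes had a lower DCI difference at day 24 than at day 17. The difference was lower at day 24 for 10 of 19 liver plasma proteins, 9 of 13 apolipoproteins and 7 of 11 endocytosis genes. It was higher for none, and the shares of all genes were 3.19% lower and 1.03% higher. Apob, which rose little at day 17, read 8.01 and 7.86 without DCI and 5.61 and 5.3 with it at day 24, a change of -2.92 ± 0.15 (SE, adjusted p = 2.02e-05). Apoa4 moved by -2.58 ± 0.14 (SE, adjusted p = 2.02e-05) and Cubn by -2.75 ± 0.24 (SE, adjusted p = 0.000219), and both, having risen at day 17, were lower with DCI at day 24. Lyve1, a receptor of lymphatic and yolk sac endothelium and of some macrophages, differed by 1.42 ± 0.22 (SE, adjusted p = 0.00159) at day 17 and by -1.58 at day 24, a change of -3.0 ± 0.31 (SE, adjusted p = 0.000538). Car4, a carbonic anhydrase of capillaries, moved by -3.20 ± 0.18 (SE, adjusted p = 2.02e-05).

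Some gastric genes had a higher difference at day 24. The DCI difference was higher at day 24 for 4 of 14 and lower for none, against 1.03% and 3.19% of all genes. The median was 0.79 at day 17 and 2.34 at day 24. Gkn3 read 5.91 and 5.36 without DCI and 6.28 and 6.78 with it at day 17 and 6.57 and 7.10 without DCI and 9.88 and 10.14 with it at day 24, a change of 2.28 ± 0.27 (SE, adjusted p = 0.00147). Zg16, a secretory granule protein, moved by 2.28 ± 0.29 (SE, adjusted p = 0.00194). Adjusted p ran from 2.17e-06 to 0.0654 and 4.69e-05 to 0.061 over the alternatives. The differences of Ctla2a, Ctse and Dazl moved by 1.89, 1.71 and 1.64. Of the genes induced by glucocorticoids, 2 of 30 had a higher and 6 a lower difference at day 24, against 1.03% and 3.19% of all genes. Fkbp5 rose more at day 24 (2.14, change 0.76 ± 0.12 SE, adjusted p = 0.0075, from 0.00492 to 0.122 over the alternatives), whereas Hsd11b1 rose less (1.27, change -1.12 ± 0.13 SE, adjusted p = 0.00104, from 0.000505 to 0.0518 over the alternatives). Per1 (1.18) and Tsc22d3 (1.51) at day 24 had differences whose change from day 17 did not pass (adjusted p = 0.432 and 0.776).

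**Figure D5:**
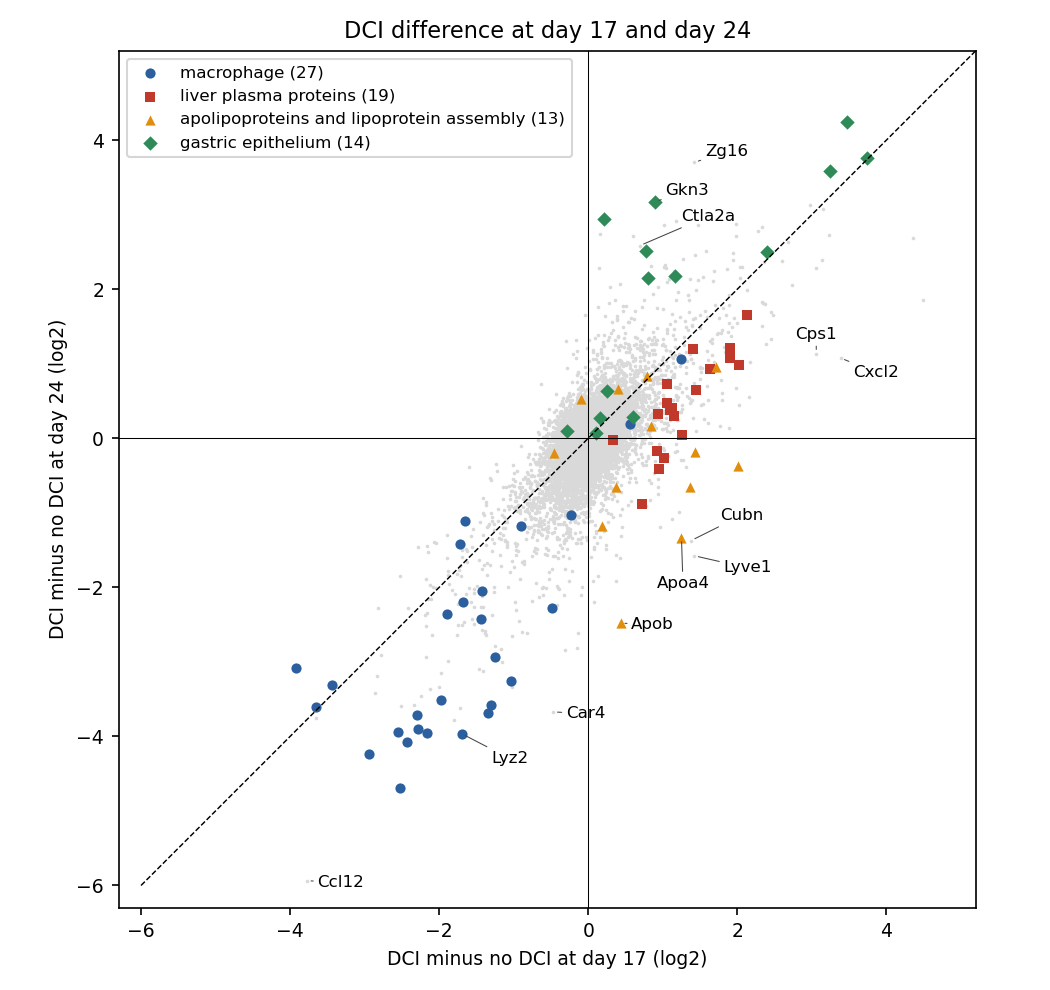
Log2 difference DCI minus no DCI at day 17 (horizontal) and day 24 (vertical), with all 18193 genes in light grey and the members of 4 lists in colour. The dashed line marks equal differences. Macrophage markers (circles) lie mostly below the line at the lower left, apolipoproteins (triangles) and liver plasma proteins (squares) lie mostly below it at the right, and gastric genes (diamonds) lie mostly near or above it.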

How the data were processed

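The authors deposited log2 expression values for 45101 Affymetrix probe sets on 10 arrays, computed with Bioconductor per the labels and with RMA per the submitters' processing notes. Neither the RMA version nor a joint normalisation of the arrays is given in the sources used here. RMA equalises the arrays' distributions, so differences are relative to the other genes, and low values are compressed. Of the probe sets, 34945 had 1 gene symbol in the platform annotation (932 several, 9160 none, 64 controls), giving 18193 genes. Each gene was read from the probe set highest on average over the 10 arrays, with no filter.

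The limma fit (limma 3.58.1, R 4.3.3) used the 8 arrays of days 17 and 24, with terms for day, KGF within day and DCI within day (2 residual degrees of freedom), and eBayes with a mean trend (8.20 prior degrees of freedom). The fit was tested on simulated data. Members of the 52 lists (781 of 832 genes measured) and the comparison itself were chosen with earlier results of these data known. Genes named are the 12 largest rises and falls among genes that passed, moved alike in both pairs and reached log2 5.27 on a day 17 array (clone names left out), up to 4 members of each list by size, the 5 largest each way by day and between pairs, and a fixed set. Alternatives were the 4 day 17 arrays alone, a common KGF term, no mean trend, a robust prior, leaving out the lowest 40% of genes, the mean of probe sets, a second quantile normalisation, an adjusted p under 0.10, a 2-fold size in addition, and each day 17 array left out. A fit with a day 17 array left out takes its day 17 difference from 1 pair, and its spread from day 24 and the prior alone. Of 91 named genes that passed and had other probe sets, 51 had a probe set with under 0.5 times the difference or the opposite sign. Python 3.11.15 and matplotlib 3.10.9 drew the figures.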

Additional observations from a re-analysis of the deposited data

Results flagged for a closer look

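The DCI difference changed between day 17 and day 24 by the test of that change itself for 767 genes. Those that are named by the rule and passed are listed here by their change on the log2 scale (day 24 minus day 17), and no explanation was tested.

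Among chemokines and enzymes that rose at day 17, the rise was smaller at day 24 for Ppbp (-2.63), Cxcl2 (-2.31), Cxcl3 (-1.67) and Cps1 (-1.92). Over the alternatives the adjusted p of this change ran from 0.000887 to 0.318 for Ppbp, 0.0029 to 0.103 for Cxcl3 and 0.00127 to 0.0566 for Cps1. Among genes of macrophages and other leukocytes, the fall was larger at day 24 for Ccl12 (-2.16), Aif1 (-2.17), Adgre1 (-1.41), Plek (-1.39), Ly86 (-1.30), Ptprc (-1.25), Ccl2 (-0.56) and Csf1r (-0.46), and smaller for Cx3cr1 (0.84). Adjusted p ran up to 0.322 for Csf1r, 0.237 for Cx3cr1, 0.0886 for Ly86, 0.135 for Plek, 0.0565 for Adgre1, 0.16 for Ptprc and 0.148 for Ccl2.

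Of liver, yolk sac and endothelial genes, the difference was lower at day 24 for Car4 (-3.20), Lyve1 (-3.0), Apob (-2.92), Cubn (-2.75), Apoa4 (-2.58), Afp (-1.61) and Igfbp1 (-1.15). Hsd11b1 (-1.12) and Pde7b (-0.82) rose less at day 24, and Fkbp5 (0.76) rose more. The difference was higher at day 24 for Gkn3 (2.28), Zg16 (2.28), Ctla2a (1.89), Ctse (1.71), Dazl (1.64), Aqp5 (1.04) and Igf1 (0.43). Adjusted p ran up to 0.084 for Igfbp1, 0.175 for Pde7b, 0.142 for Aqp5 and 0.222 for Igf1 over the alternatives.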

How the results depend on the processing

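With 1 array per condition, the number of arrays limits the precision, and p-values hold array noise with any departure from additive effects. The DCI differences are taken within matched KGF conditions. The labels carry no replicate numbers, so no replicate block could be added to that fit. The 2148 genes that passed became 1112 without a mean trend in the variance (661 higher, 451 lower), 423 with a 2-fold size in addition (251 and 172), and 1224 to 1305 with 1 day 17 array left out (741 to 813 and 476 to 502). Averaging a gene's probe sets gave 825 higher genes. The 767 genes that differed by day became 456 with a common KGF term (97 higher, 359 lower), 144 without a mean trend (34 and 110) and 290 with the mean of probe sets (75 and 215). The 316 genes at least 2-fold in both pairs became 760 at 1.5-fold. For day 17 differences, only the mean of probe sets and the second quantile normalisation could have reversed a gene that passed. The other settings keep the difference, and a left-out array leaves 1 pair, which shared its sign with the other. None of the counts above, and no named gene that passed, reversed. Counts of the skeletal and cardiac muscle lists did with a left-out array (11 of 14 skeletal genes fell from the KGF pair alone, and 4 cardiac genes fell from that pair where 2 rose from the other). The cause of these changes was not tested, beyond the smaller number of arrays and the stricter or looser fold. The 4 day 17 arrays alone gave 2345 genes (1370 higher, 975 lower). Of 185 named genes that passed at day 17, 128 passed under all alternatives run other than the left-out arrays.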
